A study of Mus musculus with 8 samples.

Results

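The genes of the MEIS and PBX transcription factors were examined in H3K27Ac ChIP-Seq data of mouse heart ventricles at postnatal day 7 (P7). Acetylation of histone H3 at lysine 27 (H3K27Ac) marks active promoters and enhancers. The 5 genes were *Meis1*, *Meis2*, *Meis3*, *Pbx2* and *Pbx3*, and a peak was given to one of them when its centre lay nearest to one of the gene's curated RefSeq transcription starts. This gave 26 peaks of 45980 on the assembled chromosomes, of which 14 belonged to *Meis1*, 8 to *Meis2*, 2 to *Meis3*, 2 to *Pbx3* and 0 to *Pbx2*. Other genes of the MEIS and PBX families were not analysed here.

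The controls carried floxed *Arid1a* (Arid1a f/f) without Cre, and the mutants (*Arid1a cKO*) were aMHC-Cre;Arid1a f/f. *Arid1a* encodes a DNA-binding member of the SWI/SNF complex, which remodels chromatin. αMHC-Cre acts in cardiomyocytes, so the other cell types of the mutant ventricle keep their floxed alleles. Each genotype had 2 H3K27Ac libraries and 2 input libraries without antibody, 8 in all. The deposited values are the authors' means for each genotype on a log2 scale, in normalized reads per peak. Depth per library is therefore unknown, and no difference below carries a replicate error or a test. A difference is the authors' *Arid1a cKO* mean minus their control mean on the log2 scale, and a read count is the authors' mean of normalized reads. In whole ventricles, fewer cells of a type and less acetylation per cell cannot be told apart.

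MEIS and PBX proteins are homeodomain factors of the TALE class. They bind DNA together, often with HOX proteins as partners, and are known for patterning the embryo and for roles in blood stem cells. In the heart MEIS1 is known for promoting the exit of cardiomyocytes from the cell cycle after birth. MEIS2 and PBX proteins act in the development of the outflow tract and of neural crest derivatives.

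The strongest peaks of *Meis1* and *Meis2* both held a PBX-MEIS composite element, TGAT directly followed by the MEIS core TGACAG. The 2 stretches are shown because the matches lay near the start of each gene within the promoter acetylation of both paralogs. The *Meis1* match lay in the first exon, 345 bases downstream of the transcription start, in the 5′ untranslated region (chr11:19018609-19018638, minus strand). The *Meis2* match lay 650 bases upstream of the most downstream of 3 starts, within an intron of the longest transcript (chr2:116065254-116065283, minus strand). Sequences and positions are those of RefSeq GRCm38.p6, which has the coordinates of mm10, and the capitals mark the motif.
*Meis1* composite element: acctcgcctgTGATTGACAGctggagtggc
*Meis2* composite element: ttccgggcttTGATTGACAGctggagtggc
The sequences were identical at 24 of 30 positions, and stretches of 100 bases around the elements were identical at 73 positions. Both counts include the motif itself, on which the stretches were chosen and aligned. No other pair of stretches was compared. A composite element was found in 1.12% of all peaks and in 2 of the 26 MEIS and PBX peaks. It was also found in 0.222% of 32851 promoter sequences of 300 bases. The 2 peaks were wide, and of peaks within 10% of their widths, 7.69% (*Meis1*) and 4.02% (*Meis2*) held a composite element.

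The peaks with the largest differences in *Meis1* and in *Meis2* each held a match to the MEF2 motif, the A/T-rich element bound by the MEF2 factors of muscle. A match was found in 5 of the 26 peaks, against 7.56% of all peaks, and the others with a match had differences of -0.30, -0.12 and 0.09. The matches in the *Meis1* and *Meis2* peaks with the largest differences are shown with the motif in capitals. The first lies in an intron of *Meis1*, 16.5 kb from the start (chr11:19002459-19002558, plus strand), and the second in an intron of *Meis2*, 41.5 kb from the start (chr2:116023036-116023135, plus strand).
*Meis1* +15.9 kb peak, MEF2: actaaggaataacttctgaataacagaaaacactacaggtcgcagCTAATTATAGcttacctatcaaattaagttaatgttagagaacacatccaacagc
*Meis2* +42.2 kb peak, MEF2: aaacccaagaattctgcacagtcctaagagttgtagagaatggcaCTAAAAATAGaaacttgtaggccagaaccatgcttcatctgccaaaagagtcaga
The *Meis1* peak also held 3 MEIS cores, of which the one 16.3 kb from the start is shown with the core in capitals (chr11:19002657-19002752, plus strand).
*Meis1* +15.9 kb peak, MEIS core: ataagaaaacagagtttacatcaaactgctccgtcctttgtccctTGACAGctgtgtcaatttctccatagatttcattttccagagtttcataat

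In *Arid1a cKO* hearts, the MEIS and PBX peaks with less H3K27Ac lay mostly inside *Meis1* and *Meis2*, which also held most of the peaks (14 and 8 of 26). The difference was below 0 in 18 of 26 peaks and above 0 in 8, against 48.3% and 50.6% of all peaks. By gene, it was below 0 in 11 of 14 peaks of *Meis1*, 6 of 8 of *Meis2*, 1 of 2 of *Meis3* and 0 of 2 of *Pbx3*. The median difference of the 26 peaks was -0.24, against 0.01 for all peaks. In 4 peaks (15.4%) the *Arid1a cKO* mean was lower by at least 2-fold, against 10.6% of all peaks, and 3 of these belonged to *Meis1* and 1 to *Meis2*. In 0 peaks was it higher by at least 2-fold, against 4.57% of all peaks. The 2-fold counts of 26 peaks were thus near the background, and the 4 peaks are described below by their values.

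**Figure D1:**
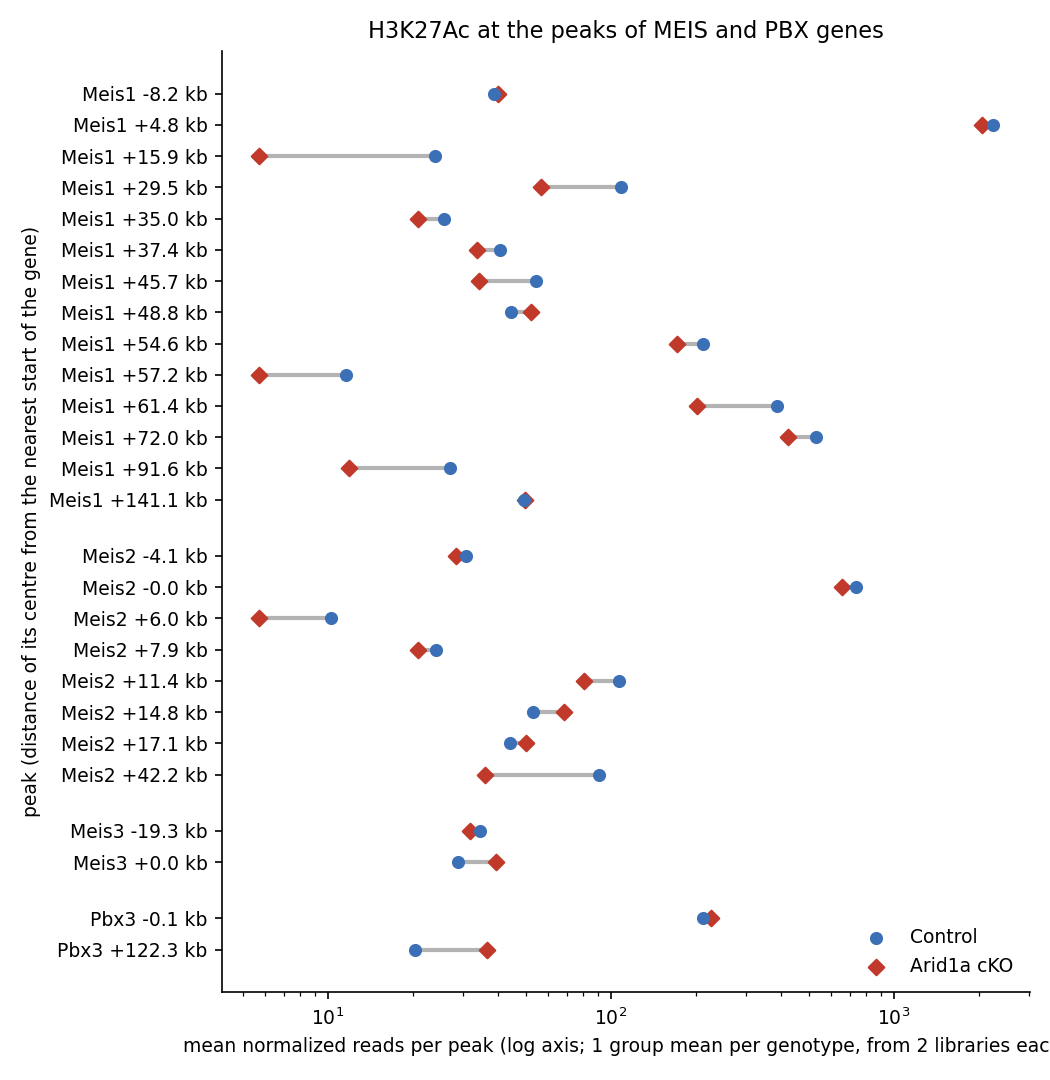
Mean normalized reads (log axis) in Control and *Arid1a cKO* at each of the 26 peaks, named by gene and by the distance of the peak's centre from the nearest start in kb. Each point is the authors' mean for 1 genotype, and the longest bars are those of *Meis1* at +15.9 and +91.6 kb and of *Meis2* at +42.2 kb.

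*Meis1* lies on the minus strand of chromosome 11 (chr11:18880428-19018969) and spans 139 kb, with 2 curated transcripts that share 1 start. Its 14 peaks covered 47.5 kb and held 3792 normalized reads in controls and 3152 in mutants, a difference of -0.27 in the log2 of the sums. The same sum over all peaks differed by -0.08. Of 15765 genes with a peak, 329 others had at least as many peaks as *Meis1*.

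The strongest peak of *Meis1* (chr11:19007056-19021373) was 14.3 kb wide and reached from 2.40 kb upstream of the start to 11.9 kb into the gene. Its level was above that of 99.8% of all peaks and its width above that of 99.4%. It held 2240 reads in controls and 2050 in mutants, a difference of -0.13. Per kb of peak these were 157 and 143 reads. Although its centre lies in intron 3, 4.75 kb from the start, this domain covers the promoter. The PBX-MEIS composite element shown above lies within it.

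The peaks further inside the gene were lower by more. Of 11 intronic *Meis1* peaks other than the strongest, 10 had a difference below 0, with a median of -0.68. Their summed reads were 1463 in controls and 1014 in mutants, 69.3% of the control sum. All 20 MEIS and PBX peaks centred in an intron of any gene had a median difference of -0.30, and 4 of them (20.0%) were lower by at least 2-fold. For all intronic peaks of the genome these values were -0.03 and 12.7%. The 20 include the *Meis1* promoter domain and the peaks upstream of *Meis2* and *Meis3*, which lie in introns of other genes.

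The largest difference of any MEIS or PBX peak was in intron 6 of *Meis1*, 15.9 kb from the start (chr11:19002454-19003758). This peak, which holds the MEF2 motif and the MEIS core shown above, had 23.9 reads in controls and 5.70 in mutants, a difference of -2.07. The *Arid1a cKO* mean was 23.8% of the control mean. Peaks were put in 4 equal bins by overall concentration. This was a weak peak, in bin 1 (the lowest), where 16.5% of all peaks were lower by at least 2-fold.

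A second *Meis1* peak lower by at least 2-fold lay in intron 8, 91.6 kb from the start (chr11:18926829-18927893), with 27.1 reads in controls and 11.9 in mutants (difference -1.19). The other lay in intron 7 at 57.2 kb (chr11:18961495-18962128), with 11.6 reads in controls and 5.70 in mutants (difference -1.03). Both were low in level, and with 5 reads added to each mean neither was lower by 2-fold, at -0.93 and -0.64. The peak at 91.6 kb was in bin 2, where 14.0% of all peaks were lower by at least 2-fold, and that at 57.2 kb in bin 1.

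Most of the reads missing from *Meis1* were in stronger peaks with smaller differences. After the promoter domain, which had 193 fewer reads, the largest loss was at 61.4 kb in intron 7 (chr11:18954810-18960297). This 5.49 kb peak held 385 reads in controls and 201 in mutants, a difference of -0.94. It was in bin 4, the highest, where 2.76% of all peaks were lower by at least 2-fold, and it was just short of that limit. The 6.25 kb peak at 72.0 kb held 530 and 422 reads, a difference of -0.33. In intron 6, the peak at 29.5 kb (chr11:18987808-18991180) held 109 and 56.5 reads, a difference of -0.95.

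The 5 remaining intronic peaks of *Meis1* all lay in intron 7. At 45.7 kb the means were 54.6 and 34.1 reads (-0.68), and at 54.6 kb they were 211 and 171 reads (-0.30). The peaks at 35.0 and 37.4 kb differed by -0.31 and -0.27. At 48.8 kb the means were 44.3 reads in controls and 52.3 in mutants, and this difference of 0.24 was the highest of the 14 peaks.

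Outside the gene body, the 2 flanking peaks had near equal means in the genotypes. That 8.16 kb upstream of the start held 38.6 reads in controls and 39.9 in mutants (0.05). The other, which began 1.32 kb past the end of the gene (chr11:18876682-18879106), held 49.2 and 49.9 reads (0.02). These peaks were rich in CpG, with 49.2 and 43.3 CpG per kb, whereas the 11 intronic peaks had a median of 7.89 CpG per kb. The median of all peaks was 13.6 CpG per kb.

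**Figure D2:**
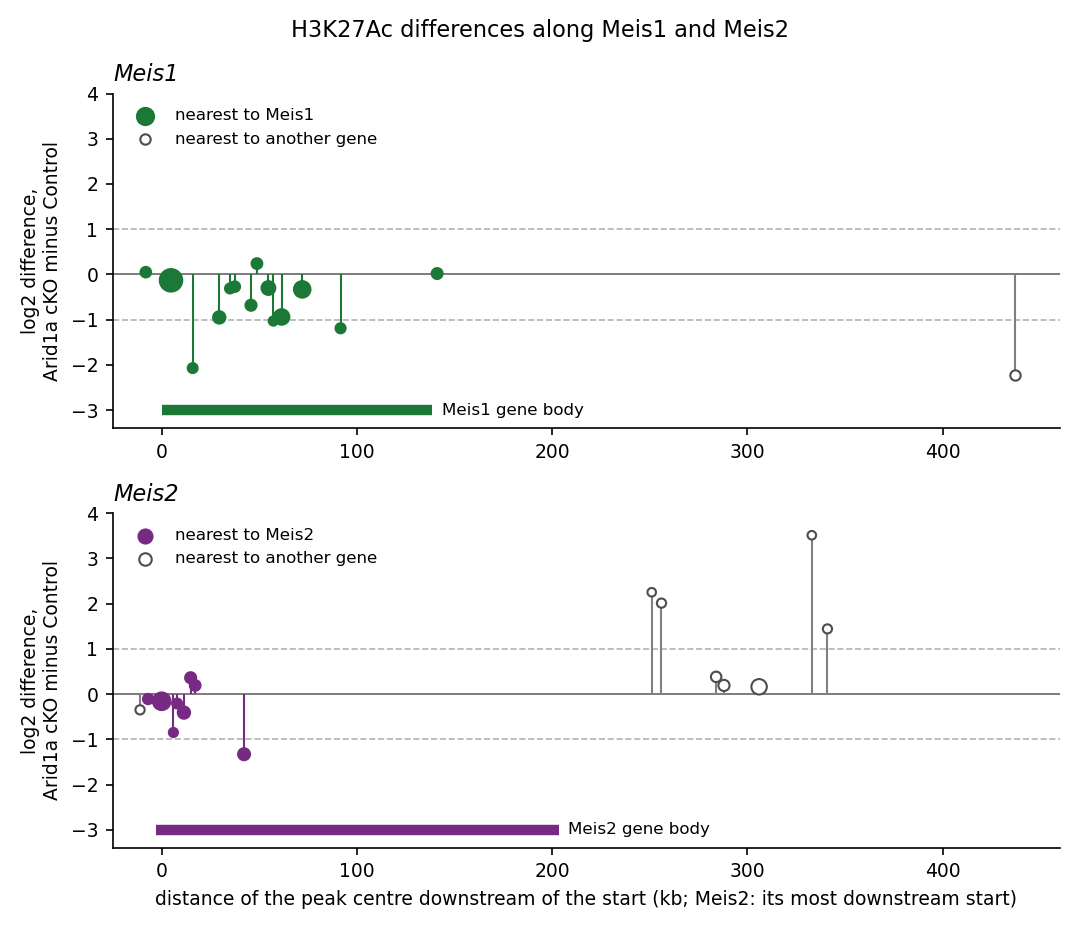
Difference of the group means (log2, *Arid1a cKO* minus Control) against the distance of the peak centre from the start of *Meis1* and the most downstream start of *Meis2* in kb, with point area increasing with the control read count and the bar at the bottom marking the gene body. Filled points are the peaks of the gene, open points are peaks nearest to another gene, and dashed lines mark a 2-fold difference. The *Meis1* points inside the gene reach -2.07 and the *Meis2* point at 42.2 kb lies at -1.33.

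*Meis2*, the paralog of *Meis1*, lies on the minus strand of chromosome 2 (chr2:115861264-116067444) and spans 206 kb, with 15 curated transcripts from 3 starts. Its 8 peaks held 1094 reads in controls and 946.9 in mutants, a difference of -0.21 in the log2 of the sums. The promoter domain (chr2:116059875-116069399), 9.53 kb wide and above 97.5% of all peaks in level, held 734 and 657 reads, a difference of -0.16. This domain covers the *Meis2* composite element shown above. It also overlaps the neighbouring gene *G630016G05Rik*, and the acetylation of *Meis2* and of this gene cannot be told apart in it.

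The peak at 42.2 kb (chr2:116020959-116023929) was lower by at least 2-fold. It is intronic in the *Meis2* transcripts and holds the MEF2 motif shown above. Its means were 90.5 reads in controls and 36.0 in mutants, a difference of -1.33, and the *Arid1a cKO* mean was 39.8% of the control mean. It was in bin 3 of concentration, where 9.14% of all peaks were lower by at least 2-fold.

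The other *Meis2* peaks lay within 20 kb of a start and went in both directions. The narrow exonic peak at 5.97 kb held 10.3 and 5.70 reads (-0.85), and the peak at 11.4 kb held 107 and 80.4 reads (-0.41). The peaks at 14.8 and 17.1 kb were higher in *Arid1a cKO* hearts, with 53.1 and 68.1 reads (0.36) at the first and 44.0 and 50.2 reads (0.19) at the second. At 7.88 kb the difference was -0.21. The peak 4.14 kb upstream, inside the neighbouring noncoding gene *G630016G05Rik*, held 30.7 and 28.4 reads (-0.11).

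Summed over their 2 peaks each, *Meis3* and *Pbx3* were higher in *Arid1a cKO* hearts, whereas the sums of *Meis1* and *Meis2* were lower. The single peaks of *Meis3* went in both directions. *Meis3* (chr7:16175395-16186510, plus strand) spans 11.1 kb and had a promoter peak with 28.8 reads in controls and 39.4 in mutants, a difference of 0.45. Its second peak lay 19.3 kb upstream, inside *Slc8a2*, which encodes a sodium-calcium exchanger, and held 34.5 and 31.8 reads (-0.12). Summed over the pair, the *Meis3* difference was 0.17.

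*Pbx3* (chr2:34171457-34372045, minus strand) spans 201 kb and had a promoter peak (chr2:34370604-34373759) with 212 and 226 reads, a difference of 0.09. Its other peak lay in intron 2, 122 kb from the start (chr2:34249023-34250502), and held 20.4 reads in controls and 36.5 in mutants. This difference of 0.84 was the highest of the 26 peaks and fell short of 2-fold. The 2 *Pbx3* peaks together differed by 0.17.

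*Pbx2* (chr17:34592259-34597400, plus strand) spans 5.14 kb and had 0 peaks nearest to its start. The start was nevertheless covered by a peak (chr17:34585673-34594026) whose centre lay 43 bases from the start of the neighbouring *Gpsm3*, a regulator of G protein signaling. That peak held 744 reads in controls and 771 in mutants, a difference of 0.05, and the acetylation of the 2 genes cannot be told apart in it.

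Per kb of peak, *Meis1* had the highest control level of the 4 genes with peaks, with 79.8 reads per kb, followed by *Meis2* with 50.6, *Pbx3* with 50.2 and *Meis3* with 20.1. In *Arid1a cKO* hearts the levels were 66.3 reads per kb for *Meis1*, 56.6 for *Pbx3*, 43.8 for *Meis2* and 22.6 for *Meis3*. *Pbx3* thus stood above *Meis2* in the *Arid1a cKO* means only. Without replicate values it cannot be said which neighbours in this order differ beyond their spread.

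The sequences upstream of *Meis1* and *Meis3* are shown because these starts lay in peaks that differed little or were higher. They are the 250 bases before the start, with CG in capitals, at chr11:19018970-19019219 (minus strand) for *Meis1* and chr7:16175145-16175394 (plus strand) for *Meis3*.
*Meis1* upstream: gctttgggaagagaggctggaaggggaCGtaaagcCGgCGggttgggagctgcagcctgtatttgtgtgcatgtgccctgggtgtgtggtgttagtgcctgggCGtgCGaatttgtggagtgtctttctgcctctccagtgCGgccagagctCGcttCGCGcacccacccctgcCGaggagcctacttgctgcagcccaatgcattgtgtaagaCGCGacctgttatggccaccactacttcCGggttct
*Meis3* upstream: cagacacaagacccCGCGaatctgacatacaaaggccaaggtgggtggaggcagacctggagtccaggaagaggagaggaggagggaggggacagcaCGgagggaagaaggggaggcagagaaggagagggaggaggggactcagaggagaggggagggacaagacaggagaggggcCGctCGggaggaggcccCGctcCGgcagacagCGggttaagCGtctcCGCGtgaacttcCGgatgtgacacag
The *Meis1* stretch held 13 CpG and that of *Meis3* 12, against a median of 6 in the same stretch of 32851 promoters. Those of *Pbx2* and *Meis2* held 27 and 7. None of these 4 stretches held a MEIS core, a PBX-HOX core, a composite element, a MEF2 motif or a TEAD core (CATTCC), whereas a MEIS core was found in 15.9% of all upstream stretches. This says only that these letters are not in the window. The *Pbx3* promoter sequence is not shown.

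The 18 MEIS and PBX peaks over 10 kb from a start held 1862 reads in controls and 1367 in mutants, 73.4% of control (-0.45). All peaks over 10 kb from a start were at 91.7% (-0.12). The 8 peaks within 10 kb held 3320 and 3065 reads, 92.3% of control, against 96.0% for all such peaks. The single peaks of the 2 distance classes overlapped in their differences, with medians of -0.32 and -0.12. Of the 18 distal peaks, 4 (22.2%) were lower by at least 2-fold, against 13.8% of all distal peaks, and of the 8 others 0 were, against 6.13% of all peaks within 10 kb. The 3 peaks centred on a promoter, of *Meis2*, *Meis3* and *Pbx3*, had a median difference of 0.09, and 0 of them were lower by at least 2-fold, against 1.56% of all promoter peaks.

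The locus values of *Meis1* and *Meis2* were within the range of other genes. Among the other 2745 genes with at least 5 peaks, 705 (25.7%) had a summed difference as low as that of *Meis1* and 840 (30.6%) as low as that of *Meis2*. The median gene was at -0.05. The genes closest to *Meis1* in reads per kb over both genotypes were *Itm2b* (78.5 in controls and 67.5 in mutants), *Pim3* (81.4 and 65.0) and *Rai1* (77.6 and 65.0). Those closest to *Meis2* were *Mypn* (51.0 and 43.5), *Zfpm2* (51.4 and 43.9) and *Lifr* (49.8 and 43.5). Likeness was the distance between genes in these 2 values on the log2 scale, so it rests on 2 group means.

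**Figure D3:**
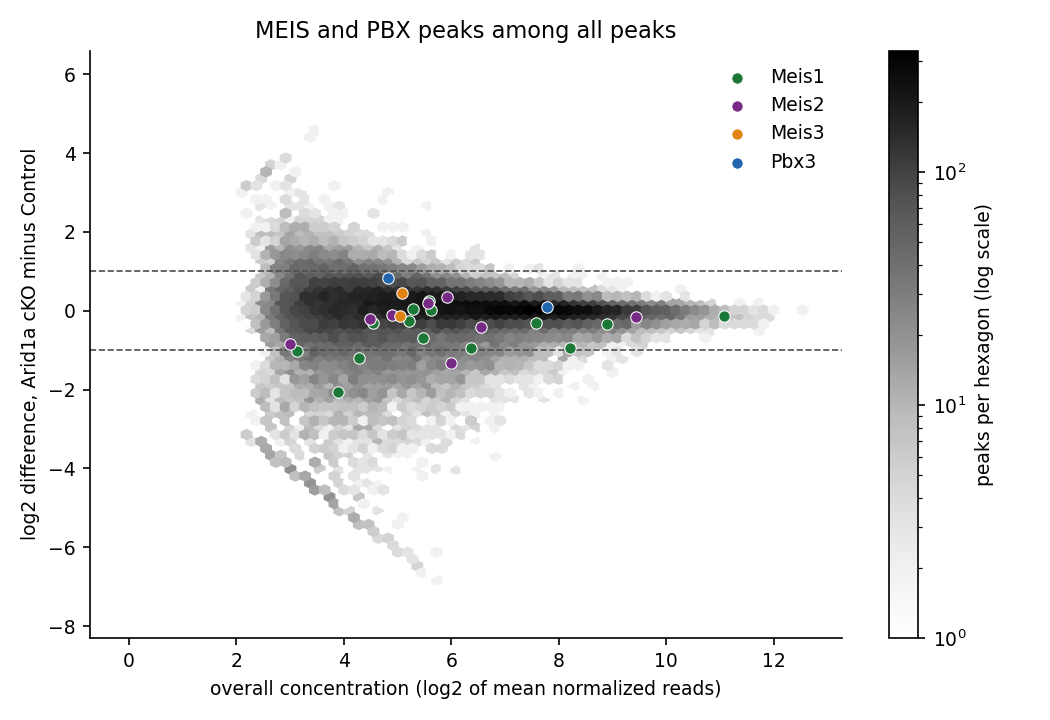
Difference of the group means (log2, *Arid1a cKO* minus Control) against overall concentration (log2 of mean normalized reads) for all 45980 peaks in grey, with the 26 MEIS and PBX peaks in colour and dashed lines at a 2-fold difference. The lowest coloured point is the *Meis1* peak at -2.07, and the *Meis1* peak furthest right is its promoter domain at -0.13.

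Motif matches in the MEIS and PBX peaks were counted on either strand. These peaks had a median GC content of 43.3%, against 48.1% for all peaks. The part of base composition in the motif shares, including those of the A/T-rich MEF2 motif below, was not tested. The MEIS core TGACAG was found 62 times in 19 of 26 peaks, at 0.806 matches per kb, against 0.805 in all peaks. The PBX-HOX core TGATNNAT was found 37 times, at 0.481 per kb against 0.387. In the central 300 bases of the peak, 5 of 26 peaks (19.2%) held a PBX-HOX core, against 8.65% of all peaks, and 6 (23.1%) held a MEIS core, against 21.1%. A composite element contains a MEIS core and is counted in both.

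The MEF2 motif was found 6 times in 5 peaks (19.2%), against 7.56% of all peaks. These were the peaks of *Meis1* at 15.9 kb (-2.07) and 54.6 kb (-0.30) and of *Meis2* at 42.2 kb (-1.33). The others were those of *Meis3* 19.3 kb upstream with 2 matches (-0.12) and of the *Pbx3* promoter (0.09). Of the 4 peaks lower by at least 2-fold, 2 held a MEF2 motif, 4 a PBX-HOX core, 3 a MEIS core and 2 a TEAD core. Of all peaks, 48.1% held a PBX-HOX core, 73.0% a MEIS core and 65.4% a TEAD core. In the central 300 bases, 0 of the 26 peaks held a MEF2 motif, against 1.64% of all peaks. Of peaks as wide as the *Meis1* peak at 15.9 kb, 4.97% held a MEF2 motif, and of those as wide as the *Meis2* peak at 42.2 kb, 9.37% did. The TEAD core was found 49 times, at 0.637 per kb against 0.612 in all peaks. A match is a stretch of letters and not a measured binding site.

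The other TALE-class genes were split by family. The PREP and TGIF genes (*Pknox1*, *Pknox2*, *Tgif1*, *Tgif2*) encode other TALE-class proteins, and TGIF proteins are known as repressors. Of their 12 peaks, 10 had a difference above 0, 2 were at 0 and 0 below, with a median of 0.33. Over all peaks, 50.6% were above 0 and 48.3% below. *Pknox2* held 6 of these peaks, with a median of 0.47. In the Iroquois genes, which pattern the ventricle and its conduction system, 21 of 28 peaks (75.0%) were below 0, with a median of -0.36. Of these 28 peaks, 4 (14.3%) were lower by at least 2-fold and 1 (3.57%) was higher, near the 10.6% and 4.57% of all peaks. *Irx3* had 15 peaks with a summed 1505 reads in controls and 1088 in mutants, and its median was -0.50. *Irx6*, with 2 peaks, had a median of 0.52, and *Irx5* had 0 peaks. The single peak of *Mkx*, a regulator of tendon cells, held 162 and 49.9 reads, a difference of -1.70. Over all 41 peaks of these 10 genes, 5 (12.2%) were lower by at least 2-fold and the median was -0.05.

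HOX genes, whose proteins bind DNA with PBX and MEIS, had 12 peaks in 7 of 39 genes. *Hoxa4* and *Hoxa5* had 1 peak each, and all the others were nearest to genes of the *Hoxb* cluster. Every one of the 12 had a difference above 0, against 50.6% of all peaks, with a median of 0.42. Their summed reads were 577.3 in controls and 836.3 in mutants. *Hoxb3* had the highest median (1.19 over 3 peaks) and held both peaks that were higher by at least 2-fold. These were 16.7% of the HOX peaks, against 4.57% of all peaks. The *Hoxb3* peaks were low in level, with a median of 28.1 reads in mutants, against 42.8 for all peaks. *Hoxb1*, with 4 peaks, had a median of 0.25, and *Hoxb4*, with 1 peak, was at 0.09.

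Genes known to depend on MEIS1 in heart or blood cells had no common direction. Their 49 peaks had a median of 0.01, and 3 (6.12%) were lower and 1 (2.04%) higher by at least 2-fold, against 10.6% and 4.57% of all peaks. *Cdkn1a*, which encodes the cell cycle inhibitor p21, had 1 peak with 162 reads in controls and 196.7 in mutants (0.28). *Cdkn2b*, another inhibitor, was at 0.03 in its 1 peak, and *Cdkn2a* had 0 peaks. *Hif1a* and *Epas1*, which encode factors of the hypoxia response, had medians of 0.02 over 18 peaks and -0.09 over 29 peaks, and the 3 lower peaks were those of *Epas1*.

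**Figure D4:**
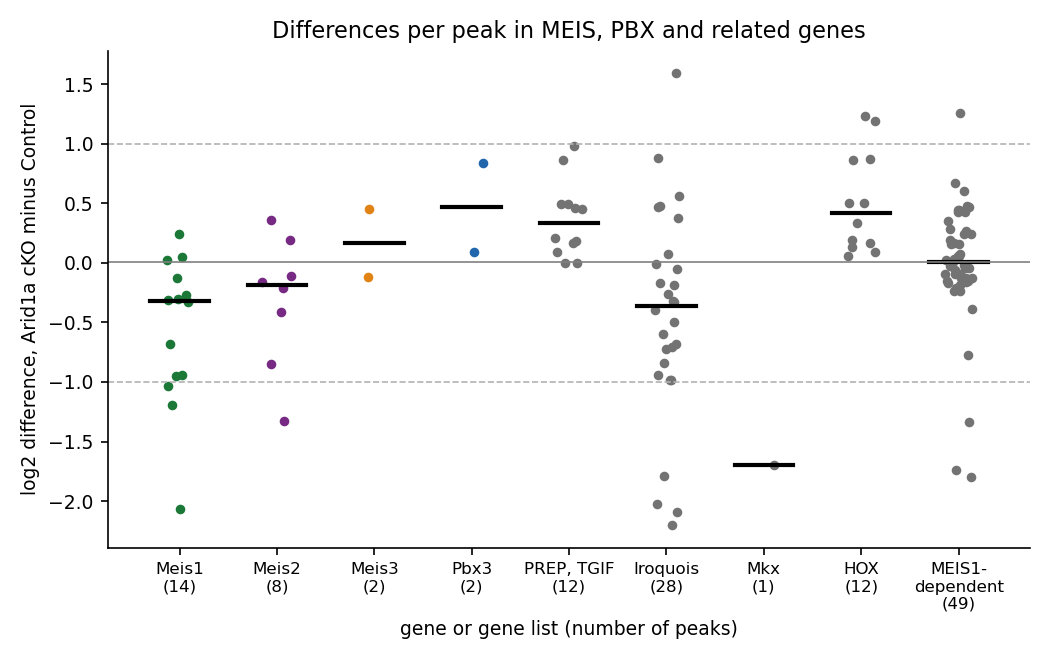
Difference of the group means (log2, *Arid1a cKO* minus Control) of each peak in the MEIS and PBX genes and in the related gene lists, with the number of peaks under each name. Black bars are medians, the grey line is the median of all peaks and dashed lines mark a 2-fold difference, and the 12 HOX peaks all lie above 0.

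Marker genes of the cell types in the ventricle are given beside these results. Peaks of 8 of 8 ventricular cardiomyocyte markers held 17700 reads in controls and 16210 in mutants, with a median difference of -0.15 over 36 peaks. Peaks of 6 of 6 fibroblast markers were above 0 in 34 of 37 cases, against 50.6% of all peaks. Their median was 0.38, with 3259 and 4383 summed reads. Endothelial markers (5 of 5) held 10810 and 10970 reads, with a median of 0.08, and mural markers (3 of 3) held 1207 and 1325, with a median of 0.00. Peaks of 3 of 5 leukocyte markers held 105.2 and 153.6 reads, with *Adgre1* and *Lyz2* without a peak, and those of 2 of 3 atrial markers held 38.83 and 87.38 reads, with *Sln* without one. Of the markers of tissues outside the heart, *Alb*, *Actn3*, *Mylpf* and *Myod1* had 0 peaks, while 2 of 3 liver markers (1168 and 1084 reads), 3 of 3 neuron markers (414.2 and 356.0) and 1 of 4 skeletal muscle markers (441.6 and 494.4) had peaks. The part of the marker differences in the MEIS, PBX and HOX values was not tested. *Arid1a* itself had 2 peaks, at -0.02 and 0.05, and their acetylation does not check its deletion.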

How the data were processed

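H3K27Ac ChIP-Seq was made from P7 ventricles of 2 control and 2 *Arid1a cKO* samples, each with an input library. The study's methods describe them as 2 control and 2 mutant hearts. Per the methods and labels, BWA 0.7.17-r1188 aligned the reads (mm10), HOMER called peaks over merged inputs, peaks seen in 2 or more samples were retained, and the authors compared the genotypes with DiffBind 2.12.0 and DESeq2 1.24.0. The authors' deposited values are log2 concentrations, the log2 of mean normalized reads over all samples and per genotype. How libraries were scaled and inputs treated is not given in the sources used here, and another scaling would shift the differences. The deposited fold change, p-value and FDR columns hold the authors' own comparison and were not used. No column holds single samples, so depth is unknown and no test was run.

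The difference of group concentrations was taken for 45980 peaks. Each was assigned to the nearest start of 45756 curated RefSeq transcripts (GRCm38.p6), and 7 peaks on unplaced sequences were left out. A promoter peak had its centre between 1000 bp before and 100 bp after a start. Locus values are log2 ratios of summed group means. Peaks were put in 4 equal bins by overall concentration, with limits at 18.1, 44.3 and 126 reads, and a mean at or under 3 reads was treated as a floor, which 0 of the 26 peaks reached. Sequences were matched to motifs on either strand, and like width means within 10%. Steps were tested on simulated data with Python 3.11.15, pandas 2.3.3 and numpy 2.4.6.

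Each promoter peak, the strongest, lowest and highest peak of a gene and every peak past 2-fold were named by rule, with the 3 genes most like *Meis1* and *Meis2*. In the related lists, the genes with the highest and lowest median and the most peaks were named. Other peaks and genes were chosen after their values were seen. The genes, lists and markers were chosen with earlier results of these data known. Alternatives covered centring, the size limit, low values, the assignment of peaks, the distance and the start used.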

Additional observations from a re-analysis of the deposited data

How the results depend on the processing

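The table holds group means only, so depth and replicate spread are unknown and weak peaks are the least certain. No paired analysis was possible because the table has no columns of single samples, and leaving out each replicate was not run for the same reason. The tolerance was 0.1 for a log2 value and 1.5 times for a count. Over 10 settings, 51 of 60 summary values stayed within their tolerance and 0 changed direction. The count of peaks lower by at least 2-fold, 4, was 8 at a 1.5-fold limit, 1 at a 4-fold limit, 2 without the lowest concentration bin and 2 with 5 reads added to each mean, where the *Meis1* peaks at 57.2 and 91.6 kb dropped out. It was 6 when peaks were given to the nearest protein-coding start, which assigned 33 peaks, and 3 with the most upstream start of each gene. In the latter, 19 peaks were left since *G630016G05Rik* took most *Meis2* peaks, and the *Meis2* value of -0.21 was -0.11. That equals the difference of the peak 4.14 kb upstream, inside *G630016G05Rik*. It was counted as within tolerance, but this setting does not check the peaks inside *Meis2*. The count of higher peaks, 0, was 1 at the 1.5-fold limit and 2 with the nearest protein-coding start. With peaks centred inside the gene body only, the *Meis3* value of 0.17 was 0.45 and that of *Pbx3*, 0.17, was 0.84, since 1 peak of each was left. An assignment by overlap with the gene or 1000 bp upstream, chosen after seeing the data, gave 0.45 for *Meis3*. Of 52 values of single peaks, 6 moved, all toward 0 with 5 reads added.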

Other observations

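Of 7 peaks between 251 and 341 kb downstream of the most downstream *Meis2* start, 4 were higher by at least 2-fold in *Arid1a cKO* hearts. Of all peaks, 4.57% were higher by that much. The control means of these 4 peaks were low, at 12.1 reads or fewer. They are not counted for *Meis2*, since the nearest curated start was that of *Mir1951*. Those at 333 and 341 kb, like the peak at 306 kb, lay in introns of another gene. These peaks were chosen after their values were seen. At 333 kb from the most downstream *Meis2* start (chr2:115730305-115732109), the authors' means were 5.13 reads in controls and 58.5 in mutants, a difference of 3.51. At 251 kb they were 4.99 and 23.8 reads (2.25), at 256 kb 12.1 and 48.8 reads (2.01), and at 341 kb 10.9 and 29.4 reads (1.44). The strongest peak of that stretch, at 306 kb, held 380 and 425 reads (0.16). Further on, nearest to other genes, the peaks at 472, 483 and 679 kb differed by -0.82, 0.27 and 0.01. Downstream of *Meis1*, the peak 437 kb from the *Meis1* start (chr11:18581037-18582767), nearest to *Gm12022*, held 33.4 and 7.11 reads (-2.23). That 484 kb from the start, nearest to the same gene, held 1.39 and 13.7 reads, with the control mean under the floor of 3 reads. Which gene these peaks act on was not tested, and they carry no replicate error.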
